A study of Homo sapiens with 14 samples.

Results

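The centriole duplication and centrosome genes examined here were STIL, SASS6, CENPJ, CEP152, CEP192, CEP135, CEP97, PCNT and POC1A, chosen by name and found by gene symbol in both count tables, 9 of the 26732 genes that the tables share. They were chosen with earlier results of these data known. RNA sequencing measured expression in A549 and H1792, established human lung adenocarcinoma cell lines. Each line received DMSO, the solvent, or 0.1 uM AMG900, an inhibitor of the aurora kinases, and RNA was collected after 48 h. There were 4 libraries for DMSO and 4 for AMG900 in A549, and 3 for each treatment in H1792. The study made these libraries to see which genes respond when the aurora kinases are inhibited.

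The centrosome organises microtubules and, in dividing cells, the poles of the mitotic spindle. It holds a pair of centrioles inside a shell called the pericentriolar material, and in a cycling cell each centriole gives rise to a new one, once per cycle. The kinase PLK4 starts this step at a place set by the scaffold proteins CEP192 and CEP152. STIL and SASS6 then build the cartwheel, the template of the new centriole, CEP135 joins the cartwheel to the microtubule wall, and CENPJ (also called CPAP) adds tubulin to lengthen it. CEP97 caps the growing end, POC1A is a protein of the centriole wall, and PCNT (pericentrin) holds the microtubule-nucleating complexes in the pericentriolar material. Centrosomes are also where aurora kinase A acts in mitosis.

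Total counts were 4254644 to 18962883 in the A549 libraries and 42810734 to 79984064 in the H1792 libraries, so low members were measured less precisely in A549. A549 DMSO replicate 1 was the smallest library and stood apart from the other A549 DMSO libraries (chi-square per gene 12.9 to 15.5 against it, 3.24 to 4.58 among the others). H1792 DMSO replicate 1, the deepest of its group, also differed more from replicates 2 and 3 (45.2 and 21.4) than these did from each other (13.95). The treated groups were not uniform either. H1792 AMG900 replicates 1 and 3 were at 23.5 (5.90 and 10.9 for the other pairs). A549 AMG900 replicate 4 was at 7.26 to 10.2 against the others, which were at 4.11 to 5.97 among themselves. Member calls that changed without A549 DMSO replicate 1 or H1792 DMSO replicate 1 are named beside the result. The lines were counted in separate tables and differ in depth, so cell line and depth cannot be told apart. The labels name no sequencing batch. The summed level of the 5 epithelial markers EPCAM, KRT8, KRT18, KRT19 and CDH1 was 4227 to 7063 CPM (counts scaled to a fixed library total) in A549 and 674 to 852 CPM in H1792, with EPCAM under 1 CPM in A549 and CDH1 under 1 CPM in H1792. The 7 markers of blood, immune, endothelial and liver cells summed to 0.665 to 16.7 CPM, and between 5 and 6 of them were under 1 CPM in each group. Nothing in the labels says whether libraries of one group came from independent experiments, so p-values measure the spread between these libraries only.

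Promoter windows of 300 bases around the RefSeq start sites (GRCh38.p14) were at hand for all 9 members and were searched on both strands for letters bound by cell cycle regulators. The E2F letters (TTTCCCGC, TTTGGCGC, TTTGCCGC or TTTCGCGC) are bound by factors of the G1 to S transition, the CHR letters (TTTGAA or TTTAAA) by complexes that control G2 and mitosis genes, and CCAAT by NF-Y. The E2F letters were found for STIL, SASS6 and CEP192, 3 of the 9 members, while 3.99% of all 27305 genes with windows hold them. The following 3 stretches are shown because these are the members with that motif. The capitals mark the E2F letters, in SASS6 as read from the opposite strand, and positions come from an exact match to GRCh37.
STIL, chr1:47779812-47779841, minus strand: gcgagcttgtgTTTGCCGCctcagttcccg
SASS6, chr1:100598453-100598482, minus strand: gcagaagccgaGCGCCAAActcaaacttta
CEP192, chr18:12991381-12991410, plus strand: cagtccgtggacTTTCCCGCtgcacactgc

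The CHR letters were found for STIL, CEP135, CEP152 and CEP192, 4 of the 9 members against 27.9% of all genes, and CCAAT for STIL, CEP152, CEP192, CEP97, PCNT and POC1A, 6 of the 9 against 39.7%. The stretches of CEP135 and CEP152 are shown for the CHR letters, in capitals and read from the opposite strand, and that of POC1A for CCAAT, likewise reversed. POC1A is included as a member that fell in A549 and has neither the E2F nor the CHR letters.
CEP135, chr4:56815102-56815131, plus strand: ctccgcgccattTTCAAActgctctagcgc
CEP152, chr15:49103428-49103457, minus strand: ctggcgcccgctTTCAAAcagccgtacttt
POC1A, chr3:52188451-52188480, minus strand: ggcccgcgttgctATTGGtggccgttgggg
CENPJ had none of the 3 motifs in its window. A match describes these letters only, and binding was not measured.

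With DMSO, the order of the members by level began alike in both lines. On the scale of CPM per kilobase of exon, which allows genes to be compared, POC1A was the most abundant member, at 14.1 ± 1.32 in A549 (SD, n = 4) and 16.0 ± 0.68 in H1792 (SD, n = 3). CENPJ (1.86 ± 0.30 and 1.87 ± 0.45), PCNT (1.86 ± 0.13 and 1.77 ± 0.14) and STIL (1.14 ± 0.12 and 1.38 ± 0.20) followed in both lines. The other 5 members were below 1, from CEP192 at 0.763 ± 0.27 down to SASS6 at 0.304 ± 0.23 in A549, and from SASS6 at 0.822 ± 0.12 down to CEP135 at 0.374 ± 0.072 in H1792. CENPJ and PCNT overlapped between libraries in each line, and STIL and CENPJ did so in H1792. Among the 5 members below 1, each gene overlapped its neighbour in the order. The order within such pairs was not resolved. With the length of the longest transcript in place of all exons, PCNT (3.04 in A549, 2.89 in H1792) came before CENPJ (2.13 and 2.14).

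**Figure D1:**
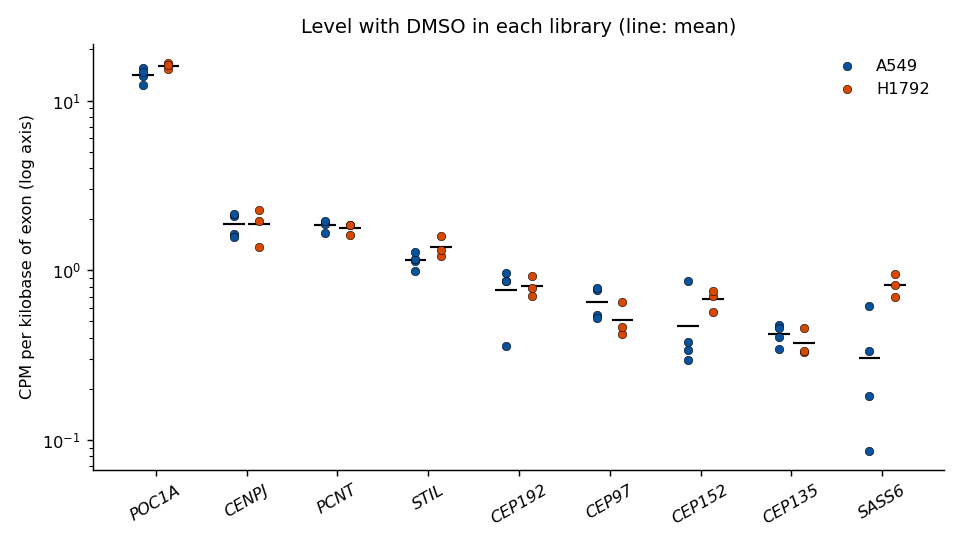
Level of each member with DMSO, in CPM per kilobase of exon on a log axis, for 4 A549 and 3 H1792 libraries (points) with the group mean (line). POC1A lies above all other members in both lines, and SASS6 is the member whose lines are farthest apart, with 4 to 23 counts in the A549 libraries.

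In the comparison of the DMSO groups, SASS6 was the 1 member called at an FDR of 0.01, with a log2 difference, H1792 minus A549, of 1.64 (95% interval 0.83 to 2.44, edgeR FDR 0.00068). It had 4 to 23 counts in the A549 DMSO libraries and 140 to 179 in those of H1792. As SASS6 did not pass the filter within A549, this call is a description. Across all genes tested 34.2% were called higher and 31.9% lower in H1792. Among the other 8 members the log2 difference was -0.40 for CEP97 to 0.69 for CEP152, and none was called. CEP152 (edgeR FDR 0.0182) was called higher in H1792 when A549 DMSO replicate 1 was left out (0.99, edgeR FDR 7.46e-05), when H1792 DMSO replicate 1 was left out (0.86, edgeR FDR 0.00796) and after a correction for GC content (0.78, edgeR FDR 0.00726). The median over the members was 0.00, and 0.04 over all genes tested.

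In A549 cells, AMG900 lowered STIL, CENPJ, CEP152 and POC1A by 2.25 to 2.41 on the log2 scale, CEP135 and CEP192 by 1.5 and 1.19, and PCNT by 0.78. Of the 8 members that could be tested, 7 were downregulated and none was upregulated, where 17.8% of the 13174 genes tested were called lower and 17.2% higher (edgeR FDR under 0.01). The median log2 fold change was -1.87 over the 8 members and -0.01 over all genes. SASS6 was left out by the filter on low counts, and CEP152 was kept because all 4 DMSO libraries were above 0.729 CPM while only 2 AMG900 libraries were. The call of CEP152 among the 7 is therefore a description. Fewer cells expressing a gene and less of its RNA per cell cannot be told apart in these bulk libraries.

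**Figure D2:**
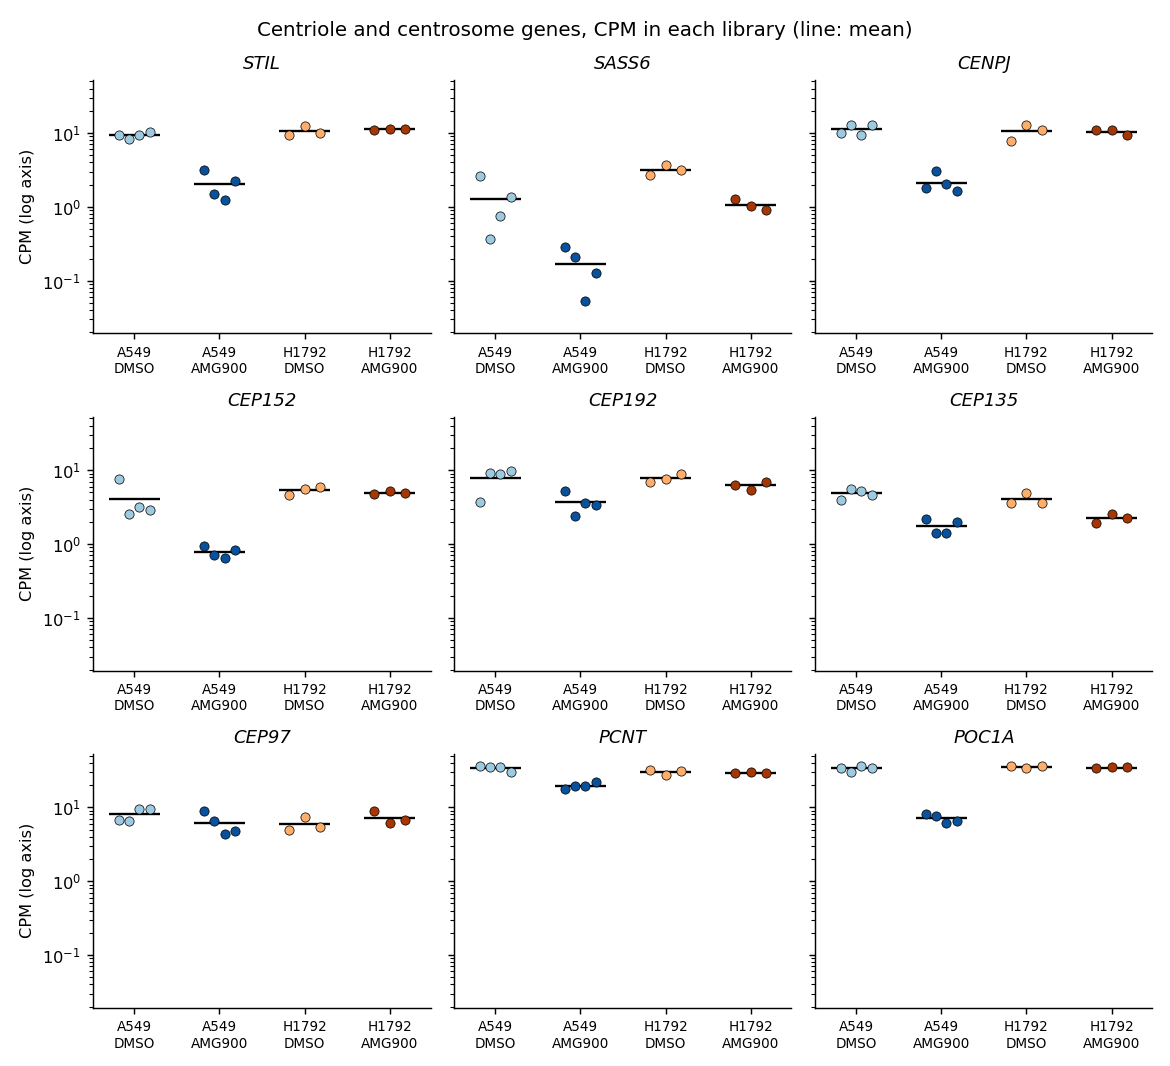
CPM of each member in each of the 14 libraries, on a log axis, with group means as lines. In A549 the AMG900 libraries of STIL, SASS6, CENPJ, CEP152, CEP135, PCNT and POC1A all lie below the DMSO libraries, and in H1792 this holds for SASS6 and CEP135. In H1792 such a separation gives p = 0.1 by an exact permutation test, the lowest value these libraries can give. The share of all tested genes with separated groups is not given here, so the separation only describes these members.

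The scaffolds that recruit PLK4 were both lower. CEP152 was at 7.52, 2.55, 3.21 and 2.85 CPM in the A549 DMSO libraries and at 0.945, 0.702, 0.647 and 0.840 CPM with AMG900, so that the groups did not overlap although DMSO replicate 1 was far above the others. Its change was -2.26 on the log2 scale (SE 0.39, edgeR FDR 0.000278). As it passed the filter through its DMSO libraries alone, with 10 to 13 counts in the AMG900 libraries, this is a description. CEP192 was at 3.76, 9.10, 8.82 and 9.85 CPM with DMSO and at 5.29, 2.39, 3.56 and 3.36 CPM with AMG900. Here the groups overlapped, through the low DMSO replicate 1 and AMG900 replicate 1. Its change was -1.19 on the log2 scale (SE 0.28, edgeR FDR 0.00273) was not called without DMSO replicate 4 (edgeR FDR 0.0113) or without AMG900 replicate 2, 3 or 4 (edgeR FDR 0.0118, 0.0104 and 0.0108), nor after the correction for GC content (-0.88, edgeR FDR 0.0169).

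Among the genes of the cartwheel, STIL fell from 9.40, 8.19, 9.42 and 10.3 CPM with DMSO to 3.12, 1.47, 1.24 and 2.26 CPM with AMG900, with every AMG900 library below every DMSO library. Its change was -2.25 on the log2 scale (SE 0.26, edgeR FDR 6.69e-06), about 4.75-fold lower. SASS6 had 11, 4, 10 and 23 counts with DMSO and 3, 3, 1 and 2 counts with AMG900, which is 0.364 to 2.58 CPM and 0.0539 to 0.283 CPM. The groups did not overlap (two-sided p = 0.0286 by an exact permutation test, the lowest value 4 against 4 libraries can give), and with no filter on low counts the log2 fold change was -2.79 (95% interval -4.31 to -1.27, edgeR FDR 0.00186), an estimate that rests on these few counts. CEP135 went from 3.99, 5.55, 5.23 and 4.57 CPM to 2.17, 1.4, 1.4 and 2.0 CPM, a change of -1.5 on the log2 scale (SE 0.25, edgeR FDR 0.000196) and no overlap.

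CENPJ, the elongation factor, had the lowest log2 fold change in A549 among the 8 members that passed the filter. It was at 10.1, 12.8, 9.49 and 12.9 CPM with DMSO and at 1.80, 3.09, 2.05 and 1.62 CPM with AMG900, a change of -2.41 on the log2 scale (SE 0.23, edgeR FDR 8.54e-07) and 5.32-fold lower. CEP97, the cap protein that limits this growth, was the member not called: it was at 6.81, 6.55, 9.42 and 9.56 CPM with DMSO and at 8.79, 6.46, 4.37 and 4.78 CPM with AMG900. The groups overlapped and the log2 fold change was -0.45 (95% interval -0.95 to 0.04, edgeR FDR 0.12).

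For the wall and the surrounding material, POC1A and PCNT both fell. POC1A went from 33.6, 29.8, 36.5 and 34.5 CPM with DMSO to 8.03, 7.58, 6.04 and 6.59 CPM with AMG900, a change of -2.26 on the log2 scale (SE 0.13, edgeR FDR 4.67e-09). PCNT was at 36, 34.8, 35.5 and 30.04 CPM with DMSO and at 17.7, 19.4, 19.4 and 22.2 CPM with AMG900. Its groups did not overlap either, but the fall was smaller, a change of -0.78 on the log2 scale (SE 0.11, edgeR FDR 4.67e-05), or 1.72-fold.

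In H1792 cells the same treatment left most members near their DMSO level. Among 9 tested members, 2 were downregulated and none was upregulated, while 18.8% of the 15017 genes tested were called lower and 16.2% higher. The median log2 fold change was -0.05 over the members and 0.01 over all genes. The called members were SASS6 and CEP135, while STIL, also of the cartwheel, was not called. Set against 18.8% of all genes called lower, 2 of 9 members say nothing about a role. SASS6 went from 2.71, 3.67 and 3.19 CPM with DMSO to 1.26, 1.04 and 0.899 CPM with AMG900, with no overlap a change of -1.57 on the log2 scale (SE 0.20, edgeR FDR 0.000127). CEP135 was at 3.55, 4.92 and 3.60 CPM with DMSO and at 1.94, 2.52 and 2.27 CPM with AMG900, a change of -0.85 on the log2 scale (SE 0.18, edgeR FDR 0.00261) that was not called without AMG900 replicate 1 (edgeR FDR 0.0174) or AMG900 replicate 3 (edgeR FDR 0.0124). After the correction for GC content CEP135 was not called either (-0.28, edgeR FDR 0.157).

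The other 7 members were not called in H1792. STIL was at 9.30, 12.3 and 9.98 CPM with DMSO and 11, 11.3 and 11.2 CPM with AMG900, a log2 fold change of 0.09 (95% interval -0.15 to 0.33). CENPJ was at 7.81, 12.9 and 11 CPM and then at 11, 10.9 and 9.42 CPM (-0.02, 95% interval -0.37 to 0.34). For CEP152 the values were 4.54, 5.60 and 5.99 CPM and 4.68, 5.21 and 4.84 CPM (-0.13, 95% interval -0.42 to 0.16). In each of these genes the treated libraries lay within the range of the controls. POC1A was at 36.7, 34 and 36.2 CPM and then at 33.7, 35.3 and 34.6 CPM (-0.05, 95% interval -0.19 to 0.09), and PCNT at 31.7, 27.5 and 31.4 CPM and then at 29.0, 29.7 and 29.4 CPM (-0.04, 95% interval -0.20 to 0.12). CEP192 went from 6.85, 7.63 and 8.98 CPM to 6.29, 5.45 and 6.88 CPM (-0.33, 95% interval -0.62 to -0.04, edgeR FDR 0.0581), and it was called lower without DMSO replicate 1 (-0.44, edgeR FDR 0.00663). CEP97 was at 4.88, 7.49 and 5.33 CPM with DMSO and at 8.82, 6.07 and 6.69 CPM with AMG900 (0.30, 95% interval -0.11 to 0.70).

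**Figure D3:**
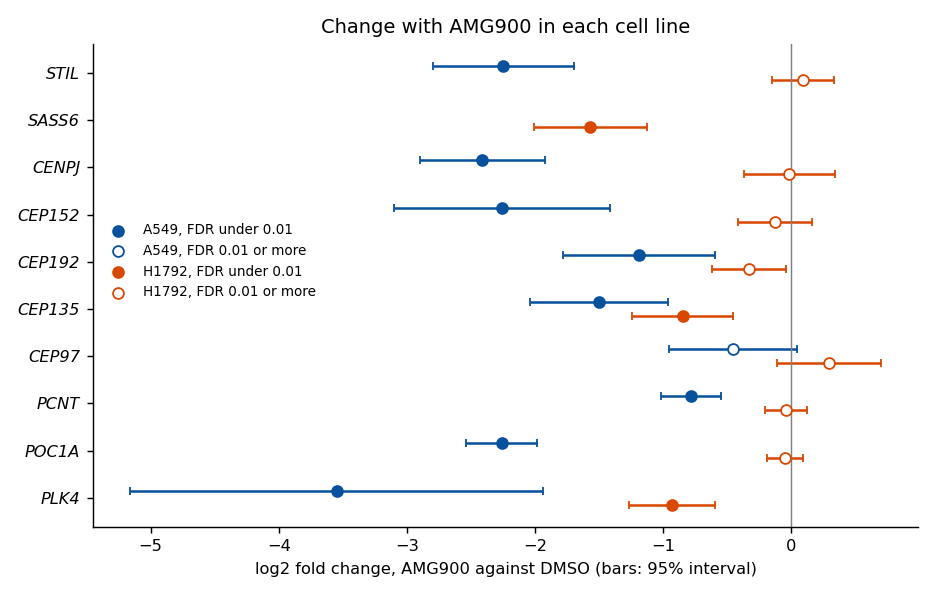
Log2 fold change of AMG900 against DMSO for the 9 members and PLK4, with 95% intervals, in A549 (blue) and H1792 (orange); filled points passed an FDR of 0.01. STIL, CENPJ, CEP152 and POC1A lie below -2 in A549 and close to 0 in H1792, while SASS6 could be tested in H1792 only.

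Whether the lines responded differently was tested by the interaction term over all 14 libraries. All 9 members had a higher log2 fold change in H1792 than in A549, and 5 were called: CENPJ (difference 2.33, 95% interval 1.72 to 2.93, edgeR FDR 5.84e-06), STIL (2.29, 1.70 to 2.87, edgeR FDR 5.16e-06), POC1A (2.15, 1.84 to 2.45, edgeR FDR 1.61e-09), CEP152 (2.0, 1.17 to 2.84, edgeR FDR 0.000937) and PCNT (0.66, 0.37 to 0.95, edgeR FDR 0.0015). Across the 14769 genes tested, 5.37% were called higher in H1792 and 9.17% lower, 793 against 1355 genes; with the size factors of DESeq2 these were 1012 and 1033, with scaling by total counts 988 and 1047, and with GC content corrected for 1331 and 1107. The median difference was 1.14 over the members and -0.10 over all genes, whose quartiles were -0.46 and 0.26. CEP135 (0.59, 95% interval -0.04 to 1.23), CEP97 (0.69, 0.02 to 1.36), CEP192 (0.82, 0.13 to 1.5) and SASS6 (1.14, -0.40 to 2.69) were not called. SASS6 did not pass the filter within A549, where it had 1 to 3 counts with AMG900. CEP152 passed it there through its DMSO libraries alone. The differences of SASS6 and CEP152 are therefore descriptions. Without A549 DMSO replicate 1, CEP192 was called (0.98, edgeR FDR 0.00663).

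GC content moved with the change across genes in both lines. Over the genes tested, the Spearman correlation of GC content and log2 fold change was 0.487 in A549 and 0.47 in H1792, a description over genes that share libraries. The members span 34.9% GC for SASS6 to 56.7% for POC1A, against a median over the tested genes of 48.6% in A549 and 48.8% in H1792. When GC content was corrected for within each library, 6 of the 8 members remained called lower in A549 (STIL, CENPJ, CEP152, CEP135, PCNT and POC1A), with a median of -1.44 over the 8. In H1792, SASS6 remained lower (-0.92, edgeR FDR 0.0018), CEP135 (36.2% GC) was no longer called (-0.28, edgeR FDR 0.157), and CEP97 (36% GC) became upregulated (0.88, edgeR FDR 0.000972). The GC-rich PCNT (55.8%) and POC1A became slightly lower in H1792, at -0.27 (edgeR FDR 0.00371) and -0.29 (edgeR FDR 0.00125). The same 5 interactions were called with the correction. Whether GC content or library preparation had a part in these differences was not tested.

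**Figure D4:**
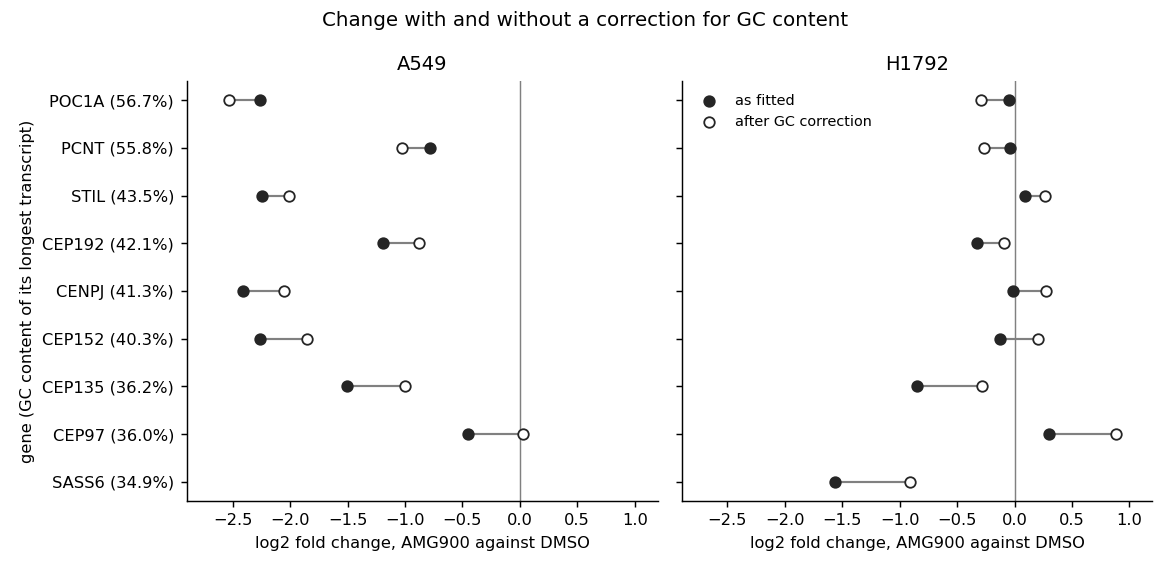
Log2 fold change of each member before (filled) and after (open) the correction for GC content, with members ordered by the GC content of their longest transcript. Members of low GC content move up and those of high GC content move down; in A549 all but CEP97 stay below 0, and in H1792 CEP135 moves to -0.28 and CEP97 to 0.88.

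PLK4, the kinase that starts centriole duplication, was called lower in both lines. In A549 it passed the filter on low counts through its DMSO libraries alone (4 above 0.729 CPM, against 0 with AMG900), so its values there are a description. Counts were 8, 27, 23 and 18 with DMSO and 5, 2, 1 and 0 with AMG900 in A549, so its fold there is poorly determined (log2 fold change -3.55, 95% interval -5.16 to -1.94, edgeR FDR 0.000412). A count of 0 allows up to 0.194 CPM in that library, by the limit of 3 counts. In H1792 it went from 3.26, 3.51 and 3.67 CPM to 1.98, 1.74 and 1.73 CPM (-0.93, edgeR FDR 0.000558; -0.49 and not called after the GC correction, edgeR FDR 0.0169). The difference between the lines (2.60, edgeR FDR 0.00491) was called in 6 of the 14 fits that each left out a library, and was lost without A549 DMSO replicate 2, A549 AMG900 replicate 2, 3 or 4, H1792 DMSO replicate 1 or 3, or H1792 AMG900 replicate 1 or 2.

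Around the members, 57 further genes of centriole duplication, centriole assembly, the pericentriolar material, the linker and appendages, and the satellites were all tested in both lines. This list was chosen by role with earlier results of these data known, so its shares are a description. In A549, 29 (50.9%) were downregulated, against 17.8% of all genes tested, and none was upregulated, against 17.2% (median -0.70), although 6 of the 57 (PLK4, ASPM, CEP295, CEP44, SCLT1 and SSX2IP) passed the filter through their DMSO libraries alone. In H1792, 14 (24.6%) were downregulated and 8 (14%) upregulated (median -0.16), against 18.8% and 16.2% of all genes. By role, AMG900 lowered 6 of 8 duplication genes, 9 of 20 assembly genes, 8 of 11 genes of the pericentriolar material, 4 of 12 linker and appendage genes and 2 of 6 satellite genes in A549. The matching counts in H1792 were 3, 5, 2, 1 and 3 lower, with 0, 1, 3, 3 and 1 higher; set against those shares of all genes, counts this small say nothing about single roles. In the interaction 16 of the 57 (28.1%, against 5.37% of all genes) were called, all with a higher log2 fold change in H1792.

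**Figure D5:**
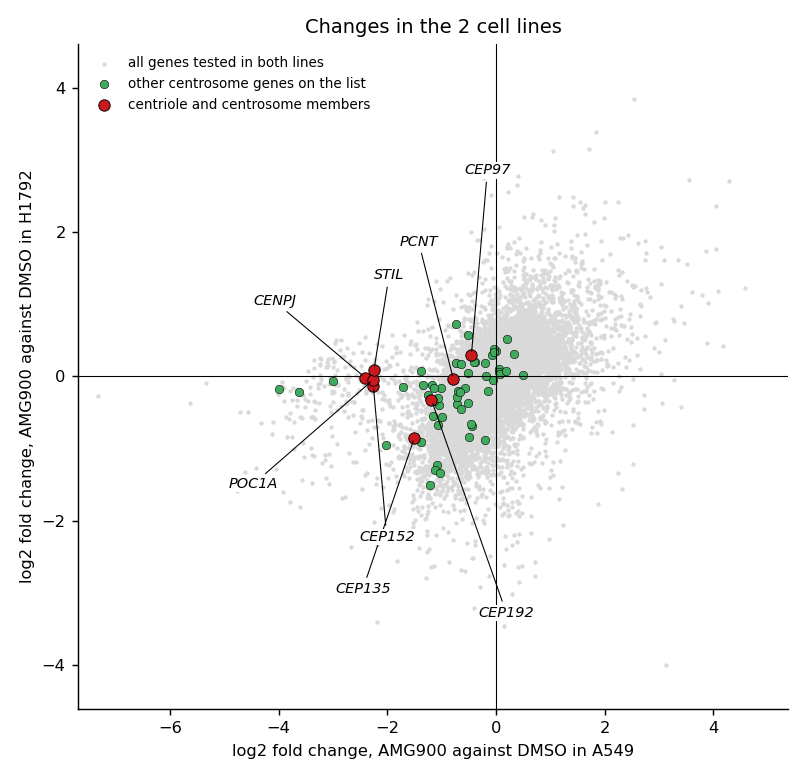
Log2 fold change in A549 (horizontal) and H1792 (vertical) for genes tested in both lines (grey), the 57 other centrosome genes (green) and the 8 members tested in both (red). STIL, CENPJ, CEP152 and POC1A lie to the left at about -2.3 on the A549 axis and near 0 on the H1792 axis, and CEP135 is the member tested in both lines that lies farthest down.

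The lowest log2 fold changes among these in A549 belonged to ASPM, a spindle pole protein (4.41 ± 1.31 CPM in controls and 0.280 ± 0.150 CPM in treated cells, SD, n = 4; log2 fold change -3.99, edgeR FDR 2.31e-06), NEK2, a kinase that separates the centrosomes (28 ± 3.19 and 2.27 ± 0.795 CPM; -3.63, edgeR FDR 3.37e-09), and WDR62, a spindle pole scaffold (89.2 ± 4.16 and 11.1 ± 0.296 CPM; -3.00, edgeR FDR 6.43e-12). ASPM had 2 to 5 counts in the AMG900 libraries and, like PLK4, passed the filter only through its DMSO libraries. In H1792 none of these 3 was called. Lowest there were NEDD1, which recruits gamma-tubulin (3.19 ± 0.555 to 1.12 ± 0.136 CPM, SD, n = 3; -1.51, edgeR FDR 0.000145), SSX2IP (-1.34, edgeR FDR 0.00187; not called without DMSO replicate 3, edgeR FDR 0.0101, nor after the GC correction, edgeR FDR 0.0183) and MZT1, a small partner of gamma-tubulin complexes (-1.30, edgeR FDR 1.5e-05; -0.41 and edgeR FDR 0.0161 after the GC correction). Higher in H1792 were POC5 (0.72, edgeR FDR 0.004; called in 2 of the 6 fits that each left out a library), TUBG1, gamma-tubulin (116 ± 4.3 to 171 ± 9.76 CPM; 0.57, edgeR FDR 3.78e-05), and OFD1 (0.52, edgeR FDR 6.99e-05). TUBG1 has a near-identical copy, TUBG2, so reads may have been split between them. In A549, TUBG1 fell from 193 ± 22 to 134 ± 11.5 CPM.

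Cell cycle genes fell with most members in A549, while in H1792 many S phase genes fell and most members were not called. In A549, 41 of 41 tested S phase genes of the Seurat list were lower (median -2.40) and 51 of 53 G2/M genes (median -2.81). The H1792 counts were 26 of 42 lower for S phase (median -0.56) and, of 54 G2/M genes, 11 lower and 7 higher (median -0.05). Of all genes tested, 17.8% were called lower in A549, and 18.8% lower and 16.2% higher in H1792. No member is on either list, and of the other centrosome genes 1 is, NEK2. Relative to the DMSO mean, the mean log2 CPM of 8 members, without SASS6, was -1.28, -1.62, -1.77 and -1.57 in the A549 AMG900 libraries. For all 9 members it was -0.24, -0.28 and -0.31 in those of H1792, where the DMSO libraries spanned -0.17 to 0.14. The H1792 mean was pulled down by SASS6 (log2 fold change -1.57) and CEP135 (-0.85), and the median log2 fold change over the 9 was -0.05. The means of the 2 lines cover unlike sets of members. For S phase genes the ranges with AMG900 were -2.44 to -2.29 in A549 and -0.55 to -0.53 in H1792. How far the share of cycling cells accounts for the members' levels was not tested.

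Across the 14 libraries, a description in which the points share line, treatment and depth, the log2 CPM of STIL and POC1A rose and fell together (Pearson r 0.97), while CEP97 correlated with the other members at 0.13 to 0.42. The genes most like STIL were SPC25 (0.99), GTSE1 (0.98) and NDC80 (0.98). Nearest to POC1A were MCM5, BIRC5 and TPX2 (0.99 each), and nearest to CENPJ were PBK, CKS1B and RAD51AP1 (0.98 each). CEP152 was most like HNRNPD (0.99), RBBP8 and NASP (0.98 each). For PCNT the closest were KIF15, XRCC3 and TMPO-AS1 (0.98, 0.97 and 0.97), and for SASS6 they were BUB3, OSBPL8 and LAPTM4B (0.96, 0.96 and 0.95). CEP135 (CBX1, XPO7 and HNRNPH1, 0.95, 0.95 and 0.94) and CEP192 (TIMM17A and PTDSS1, 0.92 and 0.91) had weaker matches, and CEP97 the weakest (PDS5B, CHCHD4 and POLR2C, 0.79, 0.78 and 0.77).

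The members are spread over the genome. In GRCh37 coordinates STIL lies at chr1:47715811-47780564, SASS6 at chr1:100549119-100598511, CENPJ at chr13:25456417-25497027, CEP152 at chr15:49005125-49103343, CEP192 at chr18:12991361-13125051, CEP135 at chr4:56815037-56899527, CEP97 at chr3:101443378-101489406, PCNT at chr21:47744038-47865682 and POC1A at chr3:52109242-52188706, and counts cover their exons. SASS6 shares 292 exonic bases with a long noncoding RNA on its strand, CEP152 shares 148 and 186 with 2 noncoding RNAs on the opposite strand and PCNT shares 204 with a gene on its strand, so reads in those stretches could be assigned to either gene. The sources do not say whether counting used the strand.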

How the data were processed

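The authors sequenced RNA of A549 (4 DMSO and 4 AMG900 libraries) and H1792 (3 of each) on an Illumina NextSeq and deposited raw read counts per gene symbol in a table for each line, without normalization. The submitters' processing notes name STAR and HTSeq with the hg19 (GRCh37) genome; versions, annotation and strand setting are not given in the sources used here. For H1792, 28 entries bearing calendar dates were left out. The members and gene lists were chosen with earlier results of these data known.

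Counts were analysed in R 4.3.3 with edgeR 4.0.16 (filterByExpr, TMM, the quasi-likelihood test, FDR by Benjamini-Hochberg over all genes tested, called under 0.01), within each line for AMG900 against DMSO and over all 14 libraries for the interaction and the DMSO comparison. Log2 CPM used a prior count of 2. Intervals of fold changes are 95% intervals from the fitted dispersion; the biological coefficient of variation was 12.8% in A549 and 9.6% in H1792. CPM values printed per library are counts scaled to the product of the library total over the genes kept and its TMM factor. Factors came from each line's own table, or from all 14 libraries for CPM per kilobase and for the cell type markers. Replicate numbers did not pair libraries (correlation of same-numbered deviations -0.06 to 0.04), so no block was used. Positions, exon lengths and GC content came from the GENCODE annotation of GRCh37 (23626 of 26786 names matched), while promoters came from RefSeq. Alternatives were DESeq2 1.42.0, its size factors, scaling by total counts, other filters, an FDR threshold of 0.05, corrections for GC content (natural spline, 5 degrees of freedom) with or without length, a replicate block, DMSO libraries alone and each library left out. Named genes were the members, PLK4, and in each line the 3 lowest and 3 highest called genes of the other centrosome list. For each member the 3 genes with the highest Pearson correlation were named, except 1 gene that is not reported here. Each fit was first tested on simulated counts.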

Additional observations from a re-analysis of the deposited data

Results flagged for a closer look

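Among 18 groups of 4 A549 libraries, 2 held a library far from the others, where chance flags about 1 in 20 groups. Both were A549 DMSO replicate 1: CEP152 at 7.52 CPM, above 2.55 to 3.21 CPM in the others, and CEP192 at 3.76 CPM, below 8.82 to 9.85 CPM. The effect of AMG900 differed between the lines by the interaction test for 5 members, H1792 minus A549, by 2.29 for STIL, 2.33 for CENPJ, 2.0 for CEP152, 0.66 for PCNT and 2.15 for POC1A on the log2 scale. The value of CEP152 is a description, as it passed the filter in A549 through its DMSO libraries alone.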

How the results depend on the processing

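Few of the member counts moved by over 1.5 times. For the 57 other centrosome genes, 2 were called higher in A549 with the GC correction, with GC and length, and without DMSO replicate 1 (0 to 2 across the fits that left out a library), and in H1792 13 were with GC and length, and 4 (without AMG900 replicate 1 or 2) to 11 (without DMSO replicate 1) across the left-out fits. In H1792, 1 member was called higher with either correction, and 1 to 3 members were called lower when a library was left out. In the DMSO comparison the number of members called higher was 2 with an FDR threshold of 0.05, with no filter, and with either GC correction; it was 0 with at least 10 counts in every library, which leaves SASS6 untested, and 1 to 2 when a library was left out. No called value changed sign. With a replicate block, 6 members were called lower in A549 and 4 interactions were called (PCNT lost, edgeR FDR 0.0103) although the numbers did not pair the libraries; 1984 genes were called lower and 1923 higher in A549 with it. Depth limits SASS6 and PLK4 in A549, which had 1 to 3 and 0 to 5 counts with AMG900.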
